A study of Mus musculus with 6 samples.

Results

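Colony-stimulating factors and related cytokine genes were examined in 6 mouse cancer cell lines. The set comprised 10 genes of the 55401 in the deposited tables, picked by symbol: the ligand genes Csf1, Il34, Csf2 and Csf3, the receptor gene Csf1r, the epithelial and stromal cytokine genes Il33 and Tslp, and the genes Il18, Il1rn and Il15. All 10 symbols were found, each on 1 row. Each line had been cultured, in medium with serum, from a primary tumour of a C57BL/6 mouse, and its RNA was sequenced as 1 library. The hosts were labelled Rag1KO for 3 lines (replicates 1, 3 and 7) and WT for the other 3 (replicates 2, 4 and 6). Mice without Rag1 form no mature T or B cells, so the comparison asks whether cancer cells that grew without adaptive immunity differ from cells that grew with it. The tumour type, the age and sex of the hosts and the number of animals were not given in the sources used here, and p-values therefore measure the spread between these lines only.

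CSF1 and IL-34 are secreted ligands of the receptor CSF1R, which keeps macrophages and their precursors alive and is largely restricted to them. GM-CSF (encoded by Csf2) and G-CSF (Csf3) drive the output of granulocytes and monocytes. IL-33 and TSLP are released by barrier and stromal cells and act on innate lymphoid, mast and dendritic cells, and fibroblast-like tumour cells are a known source of CSF1.

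Values are normalized counts, the reads of a gene divided by 1 size factor per library, and the libraries held 55409583 to 62998051 reads assigned to genes. Rag1 had 39.3, 126 and 177 normalized counts in the lines labelled Rag1KO and 0 reads in each line labelled WT. Counts per gene do not show whether those reads came from an intact gene. They do not settle the genotype, and groups are called by their labels. Xist lay at or under 15.3 normalized counts in the 3 lines labelled Rag1KO, against 59776, 32733 and 5.28 in WT replicates 2, 4 and 6, and the Y-linked Ddx3y ran the other way, so that the host label and this sex-linked difference largely coincide and cannot be told apart. Of 11 fibroblast and mesenchymal markers, Vim, Col1a2, Col3a1, Pdgfra and Pdgfrb had 7299 normalized counts or more in every line. Others were low in most lines: Lum was at or under 78.3 normalized counts in all but WT replicate 4, and Fap at or under 184 in all but WT replicate 6. Dcn had 197 to 1705 normalized counts in lines labelled Rag1KO and 412 to 11372 in lines labelled WT. Of 8 epithelium and keratinocyte markers, Krt19 had 1744 to 6287 normalized counts in lines labelled Rag1KO and 0.880 to 4799 in lines labelled WT. The others of that list stayed at or under 158. Of 7 melanocyte markers, Mitf had 413 to 1570 and 574 to 2149 in the same order, the others at most 323. Of 5 endothelial markers, Tek had 87.2 to 1243 and 7.04 to 805, the others at most 227. WT replicate 6 stood apart: Thy1 had 0.880 normalized counts there, from 1 read, and Col1a1 had 206, against 487349 to 1051710 in lines labelled Rag1KO and 478322 and 668008 in WT replicates 2 and 4, and that library held the highest value for 27.4% and the lowest for 30.2% of the 16137 genes tested.

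Leukocytes, the usual CSF1R-bearing cells, left almost no trace. Of 23 macrophage and leukocyte markers, 8 had no read in any library (Fcgr1, Tyrobp, C1qa, C1qb, C1qc, Ccr2, Csf3r and S100a9), and Ptprc and Adgre1, which define leukocytes and macrophages, stayed at or under 3.83 and 1.16 normalized counts. The summed level of the list was 316 to 1984 normalized counts in lines labelled Rag1KO and 359 to 651 in lines labelled WT. Nearly all of it came from Lyz2, Cd68, Cd14 and Laptm5. The other 19 markers summed to 20.9 to 35.5 normalized counts in lines labelled Rag1KO and 5.04 to 15.8 in lines labelled WT. The genes left out of this sum were picked after their values were seen. Laptm5 had 91.5 normalized counts in WT replicate 6, so the order of the groups in the sum depends on leaving it out. In bulk RNA, fewer cells of a type and less RNA per cell cannot be told apart.

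No member passed the test between the groups. Of the 10, 8 had enough reads to be tested, and Csf2 and Csf3 did not. In limma, fitted to log2(value + 1) over all 16137 genes with Benjamini-Hochberg adjustment, 0 of the 8 reached an adjusted p under 0.05, and their adjusted p ran from 0.850 to 0.875. Over all genes tested 0.0062% were called, or 1 gene, the Y-linked Eif2s3y, which had no read in the lines labelled WT. Of those lines, WT replicate 6 nevertheless had 4345 normalized counts of the Y-linked Ddx3y, against 2.01 and 0.966 in WT replicates 2 and 4. At an unadjusted p under 0.05 the members gave 1 call, Tslp, where 4.67% of all genes tested had such a p. edgeR called 0 members and 0% of all genes. DESeq2 called 0 members and 0.41% of the genes it gave an adjusted p. At an unadjusted p under 0.05, edgeR had Tslp alone among the members, and DESeq2 had Csf1, Il34 and Tslp. The share of all genes with such a p was not counted for edgeR or DESeq2, so nothing is read from these calls. The groups did not overlap for Tslp and Il18, 2 of the 8, where 12.1% of all genes tested did not overlap and 5.6% did so with the lines labelled Rag1KO higher, as both members were. Of the 8, 6 had a positive log2 fold change (Rag1KO minus WT) and 2 a negative one. The median of the 8 was 1.22, against -0.000303 over all genes tested. These signs were not all stable. Il15, positive in limma, was -0.41 in edgeR and in DESeq2, and Il33, negative with all libraries, was 0.74 without WT replicate 6. A shift of the members as a set was not tested. WT replicate 6 gave the lowest value of Csf1, Csf1r, Tslp and Il18 and the highest of Il34, Il33 and Il15.

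**Figure D1:**
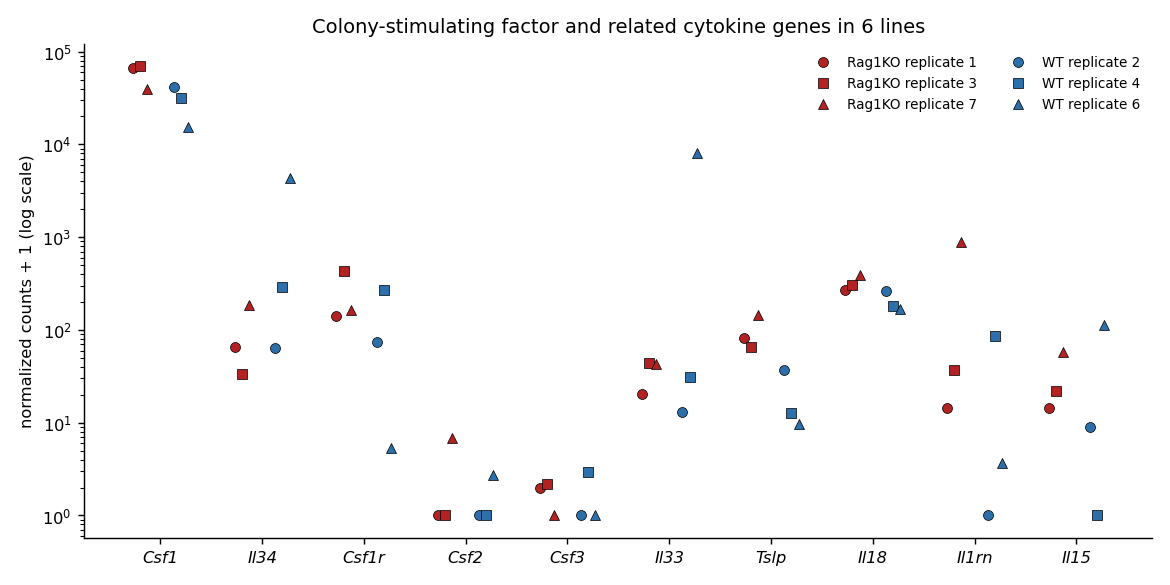
Normalized counts plus 1, on a log axis, of the 10 genes in each line, with lines labelled Rag1KO in red on the left of each gene and lines labelled WT in blue on the right, each marker shape standing for 1 replicate of its group. Csf1 is at 15455 or more in all 6 lines, Il33 and Il34 are far higher in WT replicate 6 than elsewhere, and Csf2 and Csf3 lie near 0.

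Csf1 was the dominant member in all lines. It encodes M-CSF, the main growth factor of macrophages, and lies on chromosome 3 (ENSMUSG00000014599.10, minus strand, 107741048 to 107760469, mm10). It had 65897, 69248 and 39760 normalized counts in Rag1KO replicates 1, 3 and 7, against 41203, 31385 and 15455 in WT replicates 2, 4 and 6. The 2 highest lines were both labelled Rag1KO, but the groups overlapped, since Rag1KO replicate 7 lay just under WT replicate 2. The means were 58302 ± 16145 and 29348 ± 12994 normalized counts in lines labelled Rag1KO and WT (SD, n = 3 each). The log2 fold change was 1.06 with an SE of 0.44 and a 95% interval from -0.0060 to 2.13 (limma, adjusted p = 0.850). Without WT replicate 6 it was 0.65. Per kilobase of exon, a scale that allows genes of different length to be compared, Csf1 ranked 357th of 16119 genes by its mean. By library it ranked 195th, 221st and 356th in Rag1KO replicates 1, 3 and 7, against 422nd, 513th and 1035th in WT replicates 2, 4 and 6.

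The bases before the annotated start of Csf1 are shown because this was the most abundant member, and those before both annotated starts of Il33 because 1 line stood far above the other 5 in it. They are 250-base windows from RefSeq (GRCm38.p6, the assembly of mm10), whose table held windows for 5 of the 10 members, and each is given 5′ to 3′ on the gene's own strand. Capitals mark matches to any of 4 motifs searched on both strands: the NF-kB consensus, the interferon-stimulated element TTTCNNTTTC, the STAT element TTCNNNGAA and the AP-1 element TGANTCA.
Csf1, chr3:107760470-107760719, minus strand: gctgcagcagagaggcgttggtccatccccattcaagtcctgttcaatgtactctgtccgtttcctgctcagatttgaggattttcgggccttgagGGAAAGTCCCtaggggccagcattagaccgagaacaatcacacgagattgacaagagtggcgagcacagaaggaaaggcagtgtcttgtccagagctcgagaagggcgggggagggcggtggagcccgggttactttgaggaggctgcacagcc
Il33 upstream start, chr19:29924863-29925112, plus strand: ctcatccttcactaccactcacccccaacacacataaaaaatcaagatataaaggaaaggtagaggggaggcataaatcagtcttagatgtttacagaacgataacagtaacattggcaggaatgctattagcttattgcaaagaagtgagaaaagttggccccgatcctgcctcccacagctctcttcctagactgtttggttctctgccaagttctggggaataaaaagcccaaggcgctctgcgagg
Il33 downstream start, chr19:29945540-29945789, plus strand: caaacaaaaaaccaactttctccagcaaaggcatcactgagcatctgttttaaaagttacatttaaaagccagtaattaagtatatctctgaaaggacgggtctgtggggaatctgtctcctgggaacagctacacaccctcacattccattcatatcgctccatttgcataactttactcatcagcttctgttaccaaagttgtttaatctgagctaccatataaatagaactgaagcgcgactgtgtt
Il1rn upstream start, chr2:24336610-24336859, plus strand: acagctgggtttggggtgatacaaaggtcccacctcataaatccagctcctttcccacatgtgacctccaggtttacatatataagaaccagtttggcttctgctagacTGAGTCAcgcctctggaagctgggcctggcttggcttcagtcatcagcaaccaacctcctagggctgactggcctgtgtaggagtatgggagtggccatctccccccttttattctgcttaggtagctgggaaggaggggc
The Il1rn window is included because Rag1KO replicate 7 stood far above the other 5 lines in it, and it is the 1 of 3 Il1rn windows in the table that held a match. The Csf1 window held 1 NF-kB match, on the opposite strand, 10 bases long, beginning 154 bases before the start. The Il1rn window held 1 AP-1 match, which matches on either strand, 141 to 135 bases before the start. Neither Il33 window held any of the 4, nor did the windows of Il18 and Csf2, which were searched but are not shown. In all, 8 windows of the 5 members were searched. For 6 of them the bases that follow lie in a transcript of the gene, in the annotation that gave the members' positions. The Il18 window stopped short of the gene, ending at 50554699 where the gene begins at 50554827. So did the Csf2 window, which reached 54249900 on the minus strand where the gene begins at 54249667. The bases between were not searched. Among all 32851 windows of this length, 7.25% held the NF-kB motif, 2.98% the interferon element, 7.02% the STAT element and 6.75% the AP-1 element. These matches are letters in a window and do not show binding. Counts per gene do not show which start was used.

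Il34 encodes the second ligand of CSF1R, unrelated to CSF1 in sequence and best known from neurons and skin (ENSMUSG00000031750.15, chromosome 8, 110741829 to 110805924, minus strand). It had 65.2, 32.4 and 183 normalized counts in Rag1KO replicates 1, 3 and 7, against 62.4, 286 and 4357 in WT replicates 2, 4 and 6. WT replicate 6 lay far above the other 5 lines, and the remaining lines of the groups overlapped. The log2 fold change was -2.53 with an SE of 1.60 (limma, adjusted p = 0.850). It was -4.05 in edgeR (adjusted p = 0.891) and -4.06 in DESeq2 (adjusted p = 0.216). With 1 library left out, limma gave -0.86 without WT replicate 6 and -3.91 without WT replicate 2. Gm15895, an antisense model that shares 75 exonic bases with Il34, had at most 4.40 normalized counts in any line.

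The balance of the CSF1R ligand genes therefore stood far apart in 1 line, and it also varied among the others. Il34 made up 0.0988%, 0.0468% and 0.458% of the reads of Csf1 and Il34 together in Rag1KO replicates 1, 3 and 7, against 0.151%, 0.902% and 22.0% in WT replicates 2, 4 and 6. The 95% Wilson interval in WT replicate 6 was 21.5% to 22.5%, and it covers counting error only. Corrected for length, the share of Il34 in that line was 43.2%, with 2224 normalized counts per kilobase for Il34 and 2927 for Csf1. In the other lines it lay between 0.126% and 1.23% for those labelled Rag1KO and at 0.407% and 2.40% for WT replicates 2 and 4. WT replicate 6 was thus the line with the lowest level of Csf1 and the highest of Il34.

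**Figure D2:**
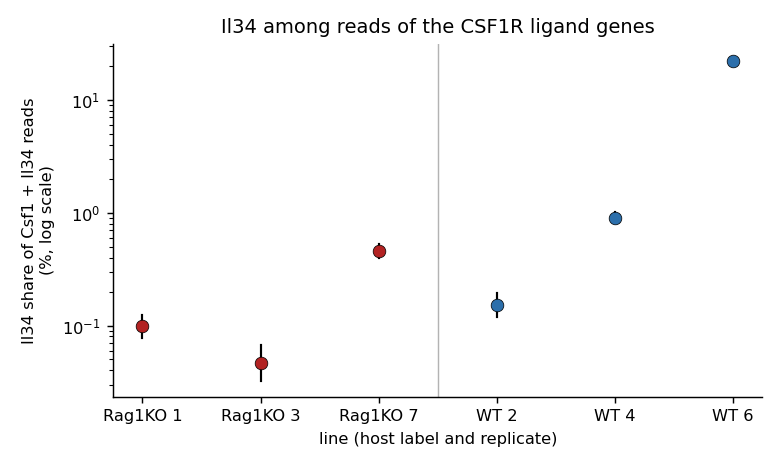
Percent of Csf1 plus Il34 reads that came from Il34, on a log axis, in each line, with lines labelled Rag1KO in red on the left and lines labelled WT in blue on the right and vertical bars for the 95% Wilson interval. The share is 22.0% in WT replicate 6 and at most 0.902% in the other 5 lines.

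Csf1r was detected at a low level in 5 lines and was near 0 in WT replicate 6. It encodes the receptor tyrosine kinase for both ligands (ENSMUSG00000024621.16, chromosome 18, 61100598 to 61132149, plus strand). It had 141, 429 and 164 normalized counts in Rag1KO replicates 1, 3 and 7, against 72.5, 268 and 4.40 in WT replicates 2, 4 and 6, the last from 5 reads. The groups overlapped, and the log2 fold change was 2.18 with an SE of 1.46 (limma, adjusted p = 0.850). It was 1.10 in edgeR and in DESeq2, and in limma 0.62 without WT replicate 6 and 3.44 without WT replicate 4. Lyz2, a lysozyme gene of myeloid cells, had no read in WT replicate 6. It had 1493, 579 and 71.7 normalized counts in Rag1KO replicates 1, 3 and 7, against 113 and 349 in WT replicates 2 and 4. Of the 23 genes of the leukocyte marker list, 18 stayed at or under 10 normalized counts in every line, too low to show such a pattern. The more abundant ones did not all share it. In WT replicate 6 Laptm5 had its highest value, 91.5 normalized counts, Cd68 had 126, and Cd14 had its lowest, also 126. The defining macrophage markers were at or near 0 in all lines, and the part of other cells in the Csf1r reads was not tested.

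The neighbours of Csf1r bear on how its low counts can be read. Pdgfrb, a receptor gene of mesenchymal cells that lies upstream of Csf1r on the same strand and ends 15536 bases before it, had 35804, 67654 and 29021 normalized counts in Rag1KO replicates 1, 3 and 7. It had 45717, 56126 and 8208 in WT replicates 2, 4 and 6. Per kilobase, Csf1r stood at 0.373%, 0.601% and 0.535% of Pdgfrb in Rag1KO replicates 1, 3 and 7, against 0.150%, 0.454% and 0.0509% in WT replicates 2, 4 and 6. Rag1KO replicate 3 had the most of both genes and WT replicate 6 the least of both, and a part of Pdgfrb transcription in the Csf1r reads was not tested. Hmgxb3, which shares 873 exonic bases with Csf1r on the opposite strand, had 2179 to 3067 normalized counts in lines labelled Rag1KO and 2831 to 3266 in lines labelled WT. In WT replicate 6 Hmgxb3 had 2831 normalized counts beside the 5 reads of Csf1r.

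Csf2 and Csf3 were close to absent. Csf2, encoding GM-CSF, had 0, 0 and 6 reads in Rag1KO replicates 1, 3 and 7, against 0, 0 and 2 in WT replicates 2, 4 and 6. Csf3, encoding G-CSF, had 1, 1 and 0 reads in the lines labelled Rag1KO, against 0, 2 and 0 in those labelled WT. The limit that a count of 0 allows is 3 reads, which the size factors turn into 2.64 to 3.48 normalized counts, so a difference between groups was not detectable at this depth. The receptor genes followed no common course. Csf3r had 0 reads in all 6 lines. Csf2ra, encoding the GM-CSF-specific chain, had 7.67, 247 and 222 normalized counts in Rag1KO replicates 1, 3 and 7, against 26.2, 27.0 and 113 in WT replicates 2, 4 and 6. Csf2rb, the signalling chain that the receptors for GM-CSF, IL-3 and IL-5 share, was at 31.6, 32.4 and 2.91 normalized counts in the lines labelled Rag1KO, against 358, 924 and 3.52 in those labelled WT. WT replicates 2 and 4 were the 2 lines with more than 40 normalized counts of it, and WT replicate 6 fell among the lines labelled Rag1KO, so the groups overlapped (limma, log2 fold change -2.82, SE 2.14, adjusted p = 0.850). Other fits gave -4.25 in edgeR and in DESeq2, -5.15 without WT replicate 6, -1.31 without WT replicate 4 and -1.79 without Rag1KO replicate 7, and none of these passed. Reads of Csf2rb cannot be fully told from those of its near-identical mouse neighbour Csf2rb2, which had 99.7 and 643 normalized counts in WT replicates 2 and 4.

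Il33 was low in 5 lines and abundant in 1. It encodes an IL-1 family alarmin held in the nucleus and released on damage (ENSMUSG00000024810.16, chromosome 19, 29925114 to 29960718, plus strand). It had 19.2, 42.9 and 41.7 normalized counts in Rag1KO replicates 1, 3 and 7, against 12.1, 29.9 and 8169 in WT replicates 2, 4 and 6. WT replicate 6 alone carried the difference of the means, and the other lines overlapped. The log2 fold change was -2.15 with an SE of 2.43 and a 95% interval from -8.10 to 3.80 (limma, adjusted p = 0.862). It was -6.29 in edgeR (adjusted p = 0.891) and -6.30 in DESeq2, which gave no p. Without WT replicate 6 it turned to 0.74 in limma.

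The receptor for IL-33 showed the opposite extreme in the same line. Il1rl1, which encodes ST2 in a membrane and a soluble form that counts per gene do not separate, had 53774, 18765 and 15419 normalized counts in Rag1KO replicates 1, 3 and 7. It had 152946, 30633 and 1917 in WT replicates 2, 4 and 6. WT replicate 2 was the highest and WT replicate 6 the lowest of the 6, so that the lines labelled Rag1KO lay inside the range of those labelled WT (limma, log2 fold change 0.26, SE 1.58, adjusted p = 0.981). Per kilobase of exon, Il1rl1 ranked 123rd of 16119 genes in WT replicate 2 and 7503rd in WT replicate 6, and 351st, 1150th and 1278th in Rag1KO replicates 1, 3 and 7. In WT replicate 6 Il33 stood at 2831 and Il1rl1 at 278 normalized counts per kilobase. In the lines labelled Rag1KO Il33 was at 6.64 to 14.9 and Il1rl1 at 2237 to 7800 per kilobase. In WT replicates 2 and 4 Il33 was at 4.19 and 10.4 and Il1rl1 at 22185 and 4443 per kilobase. Il1rap, the accessory chain of the receptors for IL-33 and IL-1, had 1665, 1928 and 3953 normalized counts in the lines labelled Rag1KO, against 928, 817 and 4279 in those labelled WT (adjusted p = 0.861 by limma).

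**Figure D3:**
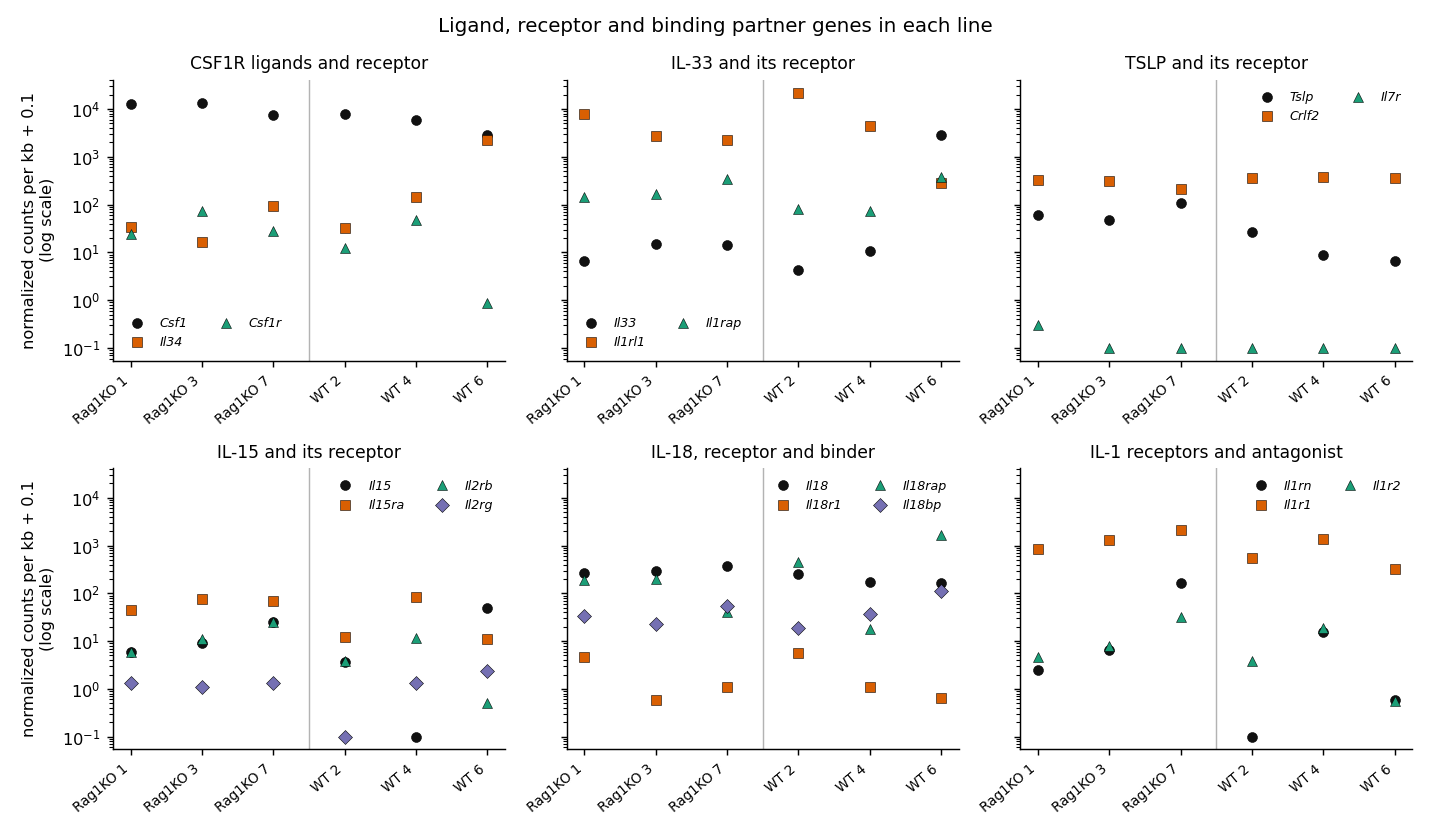
Normalized counts per kilobase of exon plus 0.1, on a log axis, of ligand genes, receptor chains and binding partners in each line, with lines labelled Rag1KO on the left and lines labelled WT on the right of each panel. Il33 lies above Il1rl1 in WT replicate 6 alone, Il7r and Il2rg stay near the bottom in every line, and Tslp is lower in each line labelled WT than in each labelled Rag1KO.

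Tslp was the member whose groups were furthest apart for their spread. It encodes thymic stromal lymphopoietin, a cytokine that activates dendritic cells (ENSMUSG00000024379.4, chromosome 18, 32815383 to 32819797, plus strand). It had 81.5, 63.7 and 143 normalized counts in Rag1KO replicates 1, 3 and 7, against 36.3, 11.6 and 8.80 in WT replicates 2, 4 and 6. Every line labelled Rag1KO lay above every line labelled WT. The means were 96.2 ± 41.8 and 18.9 ± 15.1 normalized counts in lines labelled Rag1KO and WT (SD, n = 3 each), and the log2 fold change was 2.46 with an SE of 0.68 and a 95% interval from 0.80 to 4.13. The adjusted p was 0.850 in limma, 0.891 in edgeR and 0.204 in DESeq2, so the difference did not pass. With each library left out in turn the log2 fold change ran from 2.08 to 3.05. These levels rest on 10 to 148 reads per library.

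Of the TSLP receptor, Crlf2 was present and its partner Il7r was not. Crlf2, the TSLP-specific chain, had 497, 470.4 and 323 normalized counts in Rag1KO replicates 1, 3 and 7, against 549, 577 and 552 in WT replicates 2, 4 and 6. Each line labelled Rag1KO was below each line labelled WT, the reverse of Tslp, and the log2 fold change was -0.40 with an SE of 0.27 (limma, adjusted p = 0.850). Il7r, the chain that TSLP and IL-7 receptors share, had 1 read in Rag1KO replicate 1 and 0 reads in the other 5 lines. Il7, the other ligand of IL7R, resembled Tslp in its order of groups. It had 81.5, 71.8 and 151 normalized counts in Rag1KO replicates 1, 3 and 7, against 21.1, 6.76 and 51.9 in WT replicates 2, 4 and 6. Its groups did not overlap, and its log2 fold change was 2.22 with an SE of 0.80 (adjusted p = 0.850 by limma).

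Il18 varied least among the members tested. It encodes an IL-1 family cytokine made as a precursor that caspase-1 cleaves (ENSMUSG00000039217.13, chromosome 9, 50554827 to 50581840, plus strand). It had 270.2, 306 and 392 normalized counts in Rag1KO replicates 1, 3 and 7, against 259.8, 182 and 167 in WT replicates 2, 4 and 6. The groups did not overlap, though Rag1KO replicate 1 and WT replicate 2 were close. The log2 fold change was 0.68 with an SE of 0.34 and a 95% interval from -0.14 to 1.50 (limma, adjusted p = 0.850). Its highest line was 2.34-fold above its lowest on the value + 1 scale, and 46.8% of all genes tested had a smaller range. For each of the other 7 members tested that share was 71.1% or more. Casp1, which encodes the processing enzyme, had 1, 0 and 71 reads in the lines labelled Rag1KO, against 4, 780 and 58 in those labelled WT. WT replicate 4 was the highest of the 6, and the groups overlapped (limma, adjusted p = 0.850). Il18bp, whose product binds and blocks IL-18, had 99.7, 69.5 and 162 normalized counts in Rag1KO replicates 1, 3 and 7, against 55.4, 114 and 332 in WT replicates 2, 4 and 6. Il18r1, the ligand-binding receptor chain, stayed at or under 26.2 normalized counts in every line.

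Il1rn was high in 1 line labelled Rag1KO. It encodes the IL-1 receptor antagonist (ENSMUSG00000026981.15, chromosome 2, 24336853 to 24351494, plus strand). It had 13.4, 35.9 and 893 normalized counts in Rag1KO replicates 1, 3 and 7, against 0, 84.0 and 2.64 in WT replicates 2, 4 and 6. Rag1KO replicate 7 was the highest and WT replicate 2 had no read, and the groups overlapped. The log2 fold change was 3.53 with an SE of 2.18 (limma, adjusted p = 0.850), and without Rag1KO replicate 7 it was 1.77. DESeq2 gave no p for Il1rn. Il1r1, the signalling receptor that IL-1RA blocks, had 5339, 8300 and 13265 normalized counts in the lines labelled Rag1KO, against 3526, 8824 and 2057 in those labelled WT, with overlapping groups (adjusted p = 0.850 by limma). The agonist genes Il1a and Il1b had 0 reads in all 6 lines.

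Il15 was low throughout and gave no stable direction. It encodes a cytokine that sustains natural killer and memory T cells (ENSMUSG00000031712.10, chromosome 8, 82331632 to 82403222, minus strand). It had 13.4, 20.9 and 56.2 normalized counts in Rag1KO replicates 1, 3 and 7, against 8.06, 0 and 113 in WT replicates 2, 4 and 6. The lines labelled WT held both the lowest and the highest value. The arithmetic mean was lower in lines labelled Rag1KO, at 30.2 ± 22.9 against 40.2 ± 62.8 normalized counts (SD, n = 3 each), while the log2 fold change in limma was 1.38 with an SE of 1.74 (adjusted p = 0.875). It was -0.41 in edgeR and in DESeq2, and -0.29 without WT replicate 4. Il15ra, which presents IL-15 to neighbouring cells, had 202, 339 and 312 normalized counts in the lines labelled Rag1KO, against 54.4, 371 and 49.3 in those labelled WT. WT replicate 4 was the highest of the 6 lines and the other lines labelled WT the lowest, and limma gave a log2 fold change of 1.46 with an adjusted p of 0.850. It was 0.86 in edgeR and 2.40 without WT replicate 4. Il2rb and Il2rg, the signalling chains, stayed at or under 109 and 5.28 normalized counts.

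**Figure D4:**
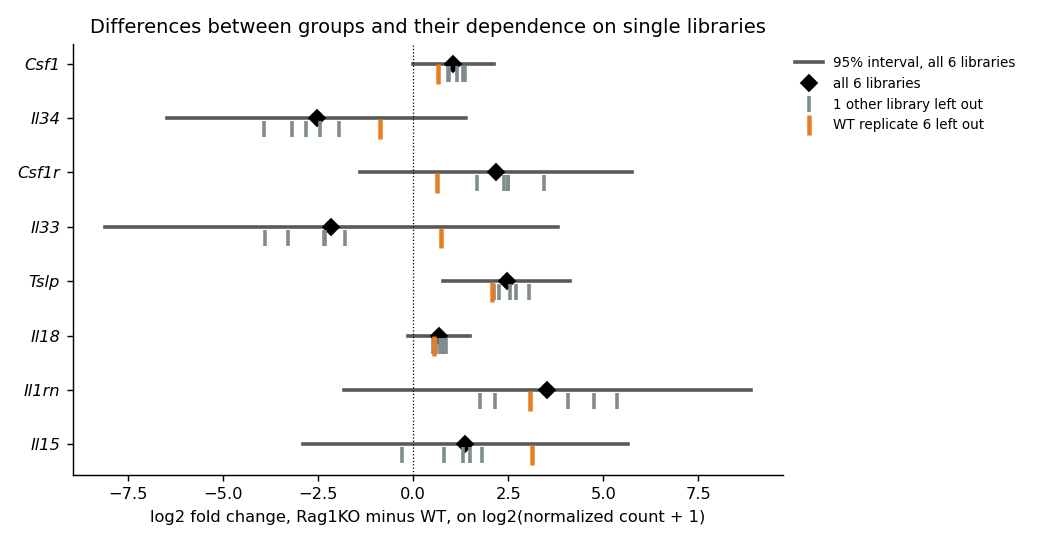
Log2 fold change (Rag1KO minus WT, on log2 of the normalized count plus 1) of the 8 members tested, with diamonds and lines for the value and 95% interval with all 6 libraries and ticks for the value with 1 library left out. The tick without WT replicate 6, in orange, moves Il33 to 0.74 and Il34 to -0.86, while all ticks of Tslp lie between 2.08 and 3.05.

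On the scale per kilobase, the mean levels over the 6 lines fell into a wide order. Csf1 came first at 8299 ± 3896 normalized counts per kilobase (SD, n = 6), and its lowest line, at 2927, lay above the highest line of any other member. Il33, at 480.2, and Il34, at 424, came next by mean only because of WT replicate 6, and their medians were 12.4 and 63.4 normalized counts per kilobase. Il18 followed at 255 ± 80.5, with all of its lines above all of those of Tslp, at 43.2 ± 38.2. Tslp, Csf1r at 31.1 ± 26.1, Il1rn at 31.0 ± 64.1 and Il15 at 15.6 ± 18.9 overlapped in their ranges, each with the next. Csf2, at 1.58, and Csf3, at 0.477, came last.

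In the genes around the members, none passed the test in either direction. The list of receptors and binding partners held 18 genes, 14 of them tested, 9 with a positive and 5 with a negative log2 fold change and a median of 0.46. Of 21 other myeloid growth and alarm cytokines, 16 were matched and 7 tested, with 4 positive, 3 negative and a median of 0.19. Kitl, the ligand of KIT, was the most abundant of these, at 16431, 4965 and 3753 normalized counts in Rag1KO replicates 1, 3 and 7, against 9269, 9238 and 12816 in WT replicates 2, 4 and 6. Thpo, encoding thrombopoietin, was at 171, 156 and 38.8 normalized counts in the lines labelled Rag1KO, against 64.5, 61.8 and 4.40 in those labelled WT, with overlapping groups. Il3, Il4, Il13, Epo and Osm had 0 reads in all lines. Of 14 processing and release genes, 10 were tested, with 3 positive, 7 negative and a median of -0.27. Adam17, the sheddase of several membrane-bound cytokines and receptors, CSF1R among them, had 4120, 3350 and 2747 normalized counts in the lines labelled Rag1KO, against 4422, 4781 and 6930 in those labelled WT. Its groups did not overlap, with a log2 fold change of -0.65 and an adjusted p of 0.850 in limma.

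The transcription factors and signalling genes lay closer to 0. Of 25 transcription factor genes, 23 were tested, with 10 positive, 13 negative and a median of -0.090. Those of lowest p were Ets2, Jun and Rel, at log2 fold changes of -0.61, -0.47 and 0.74, each with overlapping groups and an adjusted p of 0.850 in limma. All 17 signalling genes were tested, with 11 positive, 6 negative and a median of 0.068. Stat5a, a transducer of GM-CSF and IL-7 signals, had 1340, 1294 and 2156 normalized counts in Rag1KO replicates 1, 3 and 7, against 1268, 812 and 609 in WT replicates 2, 4 and 6. Its groups did not overlap, nor did those of the adaptor gene Traf6, at 1385 ± 94.5 normalized counts in lines labelled Rag1KO and 1777 ± 215 in lines labelled WT (SD, n = 3 each). Their log2 fold changes were 0.86 and -0.36, both with an adjusted p of 0.850 in limma. Over the 5 lists the groups did not overlap for 1, 1, 1, 0 and 2 genes, in the order described, where 12.1% of all genes tested did not overlap.

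For the 6 members with a mean of at least 100 normalized counts, the genes whose pattern over the 6 lines was nearest were found by the root mean square difference of centred log2(value + 1) levels. Prnp (0.14) and Mapre3 (0.18) were nearest to Csf1, and Rgs3 (0.06) and Ehd1 (0.09) to Il18. Prnp, the prion protein gene, had 20368, 26714 and 14110 normalized counts in Rag1KO replicates 1, 3 and 7, against 16520, 13242 and 5590 in WT replicates 2, 4 and 6. Notch3 (0.24), a receptor gene of mural cells, and Col27a1 (0.36) were nearest to Csf1r. Tenm4 (0.62) and Mgat4a (0.67) were nearest to Il34, Col18a1 (1.04) and Sh3bgrl2 (1.07) to Il33, and Serpina3g (1.01) and Fsd1 (1.07) to Il1rn. The genes searched also had a mean of at least 100 normalized counts, and predicted gene models were left out. With only 6 lines, how often matches this close arise among unrelated genes was not counted. With a pseudocount of 10 in place of 1 both genes stayed nearest for Csf1 and Il18, 1 for Il34, Csf1r and Il1rn, and 0 for Il33.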

How the data were processed

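Libraries came from TruSeq Stranded RNA kits, per the labels' protocols. Per the submitters' processing notes, the tools were STAR 2.7.9a, Trim Galore 0.6.6, DESeq2 and FastQC and the build mm10, with no roles stated. The counter, its strand setting and the annotation are not given in the sources used here. The deposited signal per gene is a read count divided by 1 size factor per library: 100% of values became whole, within 0.01 reads, after multiplication.

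The recovered reads passed through edgeR's filterByExpr, which left 16137 genes. For Rag1KO minus WT, log2(value + 1) was modelled in limma 3.58.1 (trend option, two-sided), and p-values were adjusted by Benjamini-Hochberg (threshold 0.05). edgeR 4.0.16 (quasi-likelihood, TMM) and DESeq2 1.42.0 were run on the recovered reads in R 4.3.3, after tests of the fits on simulated data. Other alternatives were TMM and library-size scaling, other pseudocounts and filters, and leaving out each library. Gene IDs were matched to GENCODE M21 (GRCm38), where 55141 of 55401 were found; exon lengths are unions over transcripts.

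The members and gene lists were chosen with earlier results of these data known. Named genes are the members, their receptors and binders, Rag1, and up to 3 genes of lowest p in each list. Others (Xist, Ddx3y, Eif2s3y, markers, Lyz2, Pdgfrb, Hmgxb3, Gm15895, Csf2rb2, Il1a, Il1b, and those in the closing section) were chosen after their values were seen.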

Additional observations from a re-analysis of the deposited data

How the results depend on the processing

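Of the alternatives tried, none brought a member or a gene of the lists past the threshold. The count over all genes, 1 in limma with all 6 libraries, was 0 in edgeR, 65 in DESeq2 and 0 to 5 with 1 library left out, the highest without WT replicate 6. Of 426 alternative log2 fold changes of 31 named genes, 414 kept their direction and side of the threshold and 11 changed direction. With 1 library left out the range was -3.91 to 0.74 for Il33, -0.29 to 3.12 for Il15, -0.0097 to 2.41 for Csf2ra, -0.54 to 4.43 for Ptprz1, -1.46 to 1.70 for Il1rl1 and -0.90 to 0.38 for Il18bp. In edgeR and DESeq2 Il15 gave -0.41 and -0.41, and Il1rl1 gave -1.06 and -1.07. The cause of these changes was not tested. Rag1 passed in DESeq2 alone (adjusted p = 1.85e-06; 0.338 in limma). TMM and library-size scaling turned no member, and the median over all genes was 0.010 and -0.0026 with them. Il33, Tslp, Il1rn and Il15 did not reach 1 CPM in 3 libraries and have no value under that filter. The depth limits Csf2 and Csf3, each with at most 6 reads in a library. No paired analysis was possible because the groups share no replicate number.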

Other observations

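The receptor genes of the IL-1 family lie in a row on chromosome 1, and their levels differed by orders of magnitude between immediate neighbours. Il1rl1 (40429570 to 40465415, plus strand, mm10) had 15419 to 53774 normalized counts in lines labelled Rag1KO and 1917 to 152946 in lines labelled WT. Il18r1, which follows on the same strand from 40465552 to 40500854, had 2.32 to 22.0 normalized counts in lines labelled Rag1KO and 2.64 to 26.2 in lines labelled WT. Il18rap, the accessory chain of the IL-18 receptor at 40515362 to 40551705, had 1303, 1372 and 274 normalized counts in Rag1KO replicates 1, 3 and 7, against 3117, 118 and 11385 in WT replicates 2, 4 and 6. WT replicate 6, the line with the lowest Il1rl1, thus had the highest Il18rap, and the line with the highest Il1rl1, WT replicate 2, had the second highest. The accessory chain was expressed with almost none of the ligand-binding chain in all 6 lines. Per kilobase, Il18rap ranked 1871st of 16119 genes in WT replicate 6.

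Ptprz1, which encodes a phosphatase known to bind IL-34, had 107, 1710 and 1016 normalized counts in Rag1KO replicates 1, 3 and 7, against 705, 981 and 0 in WT replicates 2, 4 and 6. The line with by far the most Il34 was therefore the line without a read of Ptprz1. The adaptor gene Pycard, whose product links inflammasome sensors to caspase-1, had 117 normalized counts in Rag1KO replicate 7 and at most 5.79 in the other 5 lines.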
